A study of Mus musculus with 10 samples.

Results

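Neurexins and neuroligins are a pair of families of synaptic adhesion proteins. The genes described are the neurexins *Nrxn2* and *Nrxn3* and the neuroligins *Nlgn1*, *Nlgn2* and *Nlgn3*, which were 5 of the 24453 genes in the count table. They were chosen by name while measured values from these libraries were already known, so their levels and differences are given as a description, with no p for a single one of them. The study compared 2 kinds of intratelencephalic projection neuron (IT-PN) that lie together in layer 5 of the mouse primary motor cortex (M1). All animals were male *Fezf2-Gfp* mice, hemizygous for a transgene that places GFP under the regulatory elements of *Fezf2*, on a Swiss Webster background. The retrograde tracer cholera toxin subunit B (CTB) coupled to a far-red Alexa dye was injected into the left M1 at postnatal day 23 to 25, and cells of the right M1 were taken at postnatal day 28 to 32. *Fezf2+ve* IT-PNs were sorted for GFP and CTB together, and *Fezf2−ve* IT-PNs for CTB without GFP. Both types were collected from each of 5 animals, which gave 10 libraries, and GFP marks cells by the transgene and not by *Fezf2* protein. The sample records give a mean yield of 11280 *Fezf2+ve* and 2688 *Fezf2−ve* cells, and the published text gives another mean for the latter. RNA was amplified by PCR and by in vitro transcription before sequencing, and the tables hold reads per gene.

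Neurexins sit mainly on the presynaptic side and neuroligins on the postsynaptic side, and the extracellular parts of both bind each other across the cleft. Each neurexin gene gives long alpha and short beta forms from separate promoters, and alternative splicing of these forms alters which partners they bind. Neuroligin-1 is found mainly at excitatory synapses and neuroligin-2 at inhibitory synapses, while neuroligin-3 occurs at both. In cortex these proteins are known for shaping how synapses form, mature and transmit.

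Library depth was low. From animal 1 to animal 5, *Fezf2+ve* libraries had 118134, 107643, 118069, 151591 and 203379 reads on genes, and *Fezf2−ve* libraries had 167916, 89138, 168711, 211368 and 217738. Levels are given as CPM, which are reads brought to a common library total with the TMM factors of edgeR, and 3 reads, taken as the limit of detection, were worth 14.2 to 34.8 CPM depending on the library. Molecular identifiers are not named for these libraries and amplified reads can be copies of 1 molecule, so this limit and the intervals below cover counting error only. *Fezf2+ve* library 1 stood apart, with 46.7% of its reads on ERCC transcripts, the synthetic RNAs spiked into each sample, and 57.1% of its gene reads on 10 genes. In the other libraries the ERCC share was 2.79 to 27.1%, and the share of gene reads on 10 genes was 13.3 to 47.4%.

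The sorted cells were labelled as cortical projection neurons, and markers of such cells were unevenly detected. *Slc17a7*, the vesicular glutamate transporter of cortical excitatory neurons, had 11 reads over the 10 libraries, and *Tbr1*, a transcription factor of such neurons, had 0. In the same list *Camk2a*, a kinase of excitatory synapses, had 588 reads, of which 529 lay in *Fezf2−ve* library 3, and the glutamate receptor gene *Grin2b* had 555, of which 435 lay in *Fezf2+ve* library 5. Among pan-neuronal markers, which encode cytoskeletal and other proteins of all neurons, *Map2* was the most abundant with 112 reads, *Tubb3* had 1 read and *Nefl* had 0. In these bulk samples fewer cells of a type and less RNA per cell cannot be told apart. Gene span, introns included, also differed among these markers. *Slc17a7*, *Tbr1*, *Tubb3* and *Nefl* span 12.2, 11.2, 10.6 and 5.23 kb, and *Camk2a*, *Grin2b* and *Map2* 62.5, 460 and 267 kb. Another pan-neuronal marker, *Rbfox3*, spans 421.8 kb and had 11 reads. Of 13281 genes with a known position and a span under 20 kb, 60.8% had no read. The part of span in these counts was not tested.

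Members of both families are alike in sequence, and a read that matched 2 of them could be counted on either. The coding sequences of *Nrxn2* and *Nrxn3* were 69.1% identical over 4684 aligned bases. Those of *Nlgn1* and *Nlgn2* were 66.5% identical, those of *Nlgn1* and *Nlgn3* 70.2%, and those of *Nlgn2* and *Nlgn3* 70.5%. Longer stretches shared with mismatches were not searched for. The longest stretches shared without a mismatch between annotated transcripts are shown.
*Nrxn2* and *Nrxn3*: agcaacaacttcatgggctgcct
*Nlgn1* and *Nlgn2*: cccaaccgctttgaaga
*Nlgn1* and *Nlgn3*: ggagagttcctcaactatgatat
*Nlgn2* and *Nlgn3*: ttcccctgcaacttctccaagaa
All 4 stretches are coding and each lies within 1 exon. On GRCm38 (mm10), the first is at chr19:6472390-6472412 (plus strand) in *Nrxn2* and chr12:89193178-89193200 (plus strand) in *Nrxn3*. The second is at chr3:25434395-25434411 (minus strand) in *Nlgn1* and chr11:69826014-69826030 (minus strand) in *Nlgn2*. The third is at chr3:25436354-25436376 (minus strand) in *Nlgn1* and chrX:101318195-101318217 (plus strand) in *Nlgn3*, and the last is at chr11:69826801-69826823 (minus strand) in *Nlgn2* and chrX:101318639-101318661 (plus strand) in *Nlgn3*. They are 17 to 23 bases long, whereas reads under 50 bases had been dropped before mapping. Introns were not compared.

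The 5 genes differ far more in the length of their introns than in that of their transcripts. *Nrxn3* (ENSMUSG00000066392, chromosome 12, 88722876 to 90334935, plus strand) spans 1612 kb, and 0.782% of the span is exonic. *Nlgn1* (ENSMUSG00000063887, chromosome 3, 25426215 to 26332460, minus strand) spans 906.2 kb, of which 1.48% is exonic. *Nrxn2* (ENSMUSG00000033768, chromosome 19, 6418731 to 6544169, plus strand) spans 125.4 kb. *Nlgn3* (ENSMUSG00000031302, chromosome X, 101299168 to 101325963, plus strand) spans 26.8 kb, and *Nlgn2* (ENSMUSG00000051790, chromosome 11, 69823122 to 69837784, minus strand) spans 14.7 kb, of which 39.5% is exonic. The longest coding transcripts are 5.57 to 11.8 kb long. A read is counted on each gene it overlaps, and whether its strand was used is not stated. *Slc22a12*, which encodes a urate transporter on the opposite strand, overlaps 7188 bases of *Nrxn2* and had 0 reads. It was the only gene of the count table found to overlap one of the 5.

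*Nrxn3* was detected in every library, and 1 library held nearly all of its reads. From animal 1 to animal 5 there were 13, 13, 53, 18 and 19 reads in *Fezf2+ve* and 47, 19, 192, 4910 and 18 reads in *Fezf2−ve* libraries. The 4910 reads of *Fezf2−ve* library 4 were 92.6% of the gene's total of 5302 and 2.32% of that library's gene reads (95% Wilson interval 2.2596 to 2.3881%), which placed *Nrxn3* at rank 8 among its genes. In CPM that library stood 40.6-fold above the next highest, *Fezf2−ve* library 3. As shares of gene reads, without TMM, the gap was smaller, at 2.32% against 0.114%. The mean was 173 ± 113 CPM (SD, n = 5) in *Fezf2+ve* and 7645 ± 16320 CPM (SD, n = 5) in *Fezf2−ve* libraries, and the remaining 4 *Fezf2−ve* libraries had a mean of 348 ± 376 CPM (SD, n = 4). The medians of 114 and 230 CPM were 2.01-fold apart. In 4 of 5 animals the *Fezf2−ve* library was the higher one for *Nrxn3*, by 2.21-fold in animal 1, 1.95-fold in animal 2, 2.55-fold in animal 3 and 176-fold in animal 4. In animal 5 the *Fezf2+ve* library was 1.17-fold higher, and the types overlapped.

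*Nrxn2* had few reads, spread thinly over all libraries. Its reads from animal 1 to animal 5 were 1, 11, 2, 2 and 14 in *Fezf2+ve* and 1, 3, 7, 9 and 1 in *Fezf2−ve* libraries. Of the 10 libraries 4 had more than 3 reads. The mean was 39.6 ± 34.7 CPM (SD, n = 5) in *Fezf2+ve* and 27.2 ± 25.7 CPM (SD, n = 5) in *Fezf2−ve* libraries. In 3 of 5 animals the *Fezf2+ve* library was the higher one, the medians of 23.2 and 25.1 CPM had the opposite order, and the difference of the means was smaller than either SD.

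*Nlgn1* was also detected in every library, with high libraries in both types. From animal 1 to animal 5 it had 29, 87, 1144, 300 and 64 reads in *Fezf2+ve* and 165, 12, 59, 3260 and 26 reads in *Fezf2−ve* libraries. *Fezf2−ve* library 4 was again the highest, with 63.3% of the 5146 reads and 1.54% of that library's gene reads (95% Wilson interval 1.49 to 1.60%). *Fezf2+ve* library 3 came next, at 7694 against 24450 CPM. As shares of gene reads the gap was smaller, at 0.969% against 1.54%. The mean was 2468 ± 3216 CPM (SD, n = 5) in *Fezf2+ve* and 5156 ± 10790 CPM (SD, n = 5) in *Fezf2−ve* libraries, while the medians, 548 and 279 CPM, had the opposite order. Without library 4 the mean of the *Fezf2−ve* libraries was 332 ± 326 CPM (SD, n = 4), below that of the *Fezf2+ve* libraries. In 3 of 5 animals *Nlgn1* was higher in *Fezf2+ve* cells, by 5.45-fold in animal 2, 27.6-fold in animal 3 and 2.74-fold in animal 5. In the remaining animals it was higher in *Fezf2−ve* cells, by 3.48-fold in animal 1 and 7.02-fold in animal 4, and the types overlapped.

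The remaining neuroligins were at or close to the limit of detection. *Nlgn2* had 0 reads in every *Fezf2+ve* library, which allows up to 18.05 to 34.8 CPM, and from animal 1 to animal 5 it had 4, 0, 2, 1 and 0 reads in *Fezf2−ve* libraries. Only *Fezf2−ve* library 1 had more than 3 reads, and the mean of the *Fezf2−ve* libraries, 7.31 CPM, was below the limit of each of them. *Nlgn3* had 0, 1, 1, 0 and 2 reads in *Fezf2+ve* and 3, 1, 2, 0 and 0 in *Fezf2−ve* libraries. No fold is given for either gene, and a difference between the types was not detectable at this depth.

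**Figure D1:**
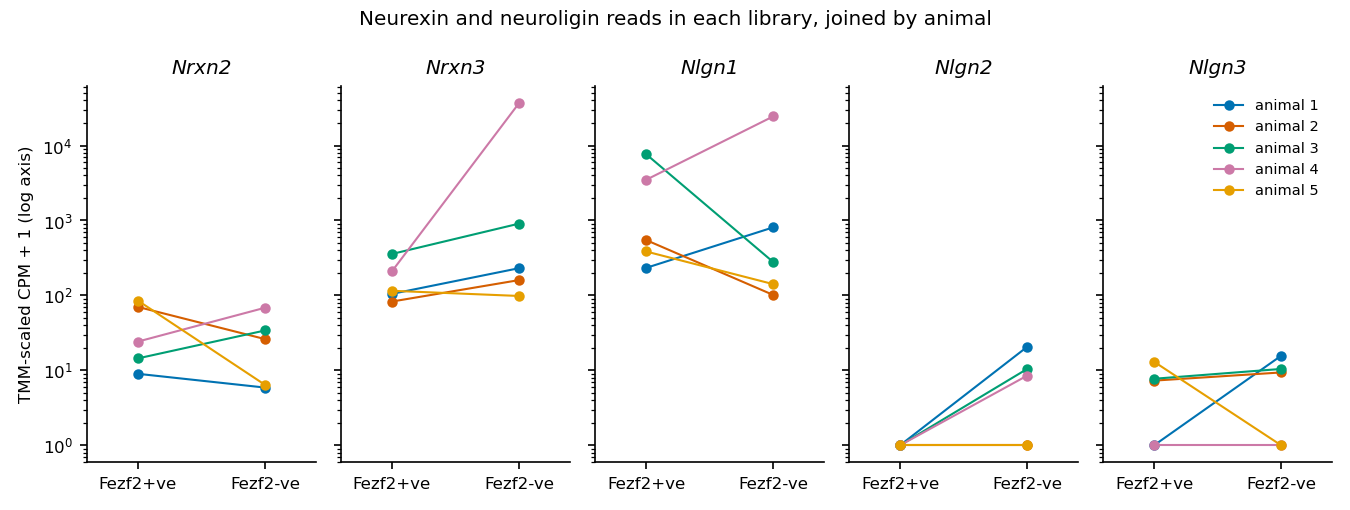
TMM-scaled CPM plus 1 (log axis) of each gene in the *Fezf2+ve* and *Fezf2−ve* library of each animal, with 1 line per animal. *Nrxn3* and *Nlgn1* both reach their highest value in the *Fezf2−ve* library of animal 4 (36830 and 24450 CPM), and the lines of *Nrxn2*, *Nrxn3*, *Nlgn1* and *Nlgn3* run in both directions.

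In the fit with the animal as a block, the log2 fold change, positive where *Fezf2+ve* IT-PNs were higher, was −1.58 (standard error 1.39) for *Nrxn3*, 0.53 (standard error 1.23) for *Nrxn2* and 0.83 (standard error 1.70) for *Nlgn1*. The values for *Nrxn2* and *Nlgn1* were smaller than their standard errors. The fitted value of *Nrxn3* was −0.86 (standard error 0.92) without animal 4, and that of *Nlgn1* was 1.75 (standard error 1.55) without animal 4 and −0.24 (standard error 1.85) without animal 3. Without animal 5 *Nrxn2* had a value of −0.33 (standard error 1.06). The direction thus turned with 1 animal left out for *Nlgn1* and *Nrxn2*, and stayed negative for *Nrxn3*. All 5 genes passed the filter of 10 CPM in 2 or more libraries, *Nlgn2* and *Nlgn3* through *Fezf2−ve* libraries alone.

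The genes were part of the fit across all genes, and their calls are given only beside the background. None of the 5 genes was called at an FDR of 0.1 in this fit, where 0 of the 7409 tested genes (0%) were called by edgeR's quasi-likelihood test, and 288 (3.89%) had an unadjusted p under 0.05. None of the 5 was called without the block, where 279 genes (3.77%) were, or by DESeq2 with the block, which called 98 (5.89%) of the 1664 genes to which it gave an adjusted p. The genes with an adjusted p from DESeq2 included *Nrxn3* and *Nlgn1* and not the other 3. Complete separation of the types, with all 5 libraries of 1 type above all 5 of the other type, occurred in 107 (1.44%) of the tested genes and in 0 of the 5. Higher values in *Fezf2−ve* cells in at least 4 of 5 animals were found for 1019 (13.8%) of the tested genes, and *Nrxn3* was 1 of them.

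**Figure D2:**
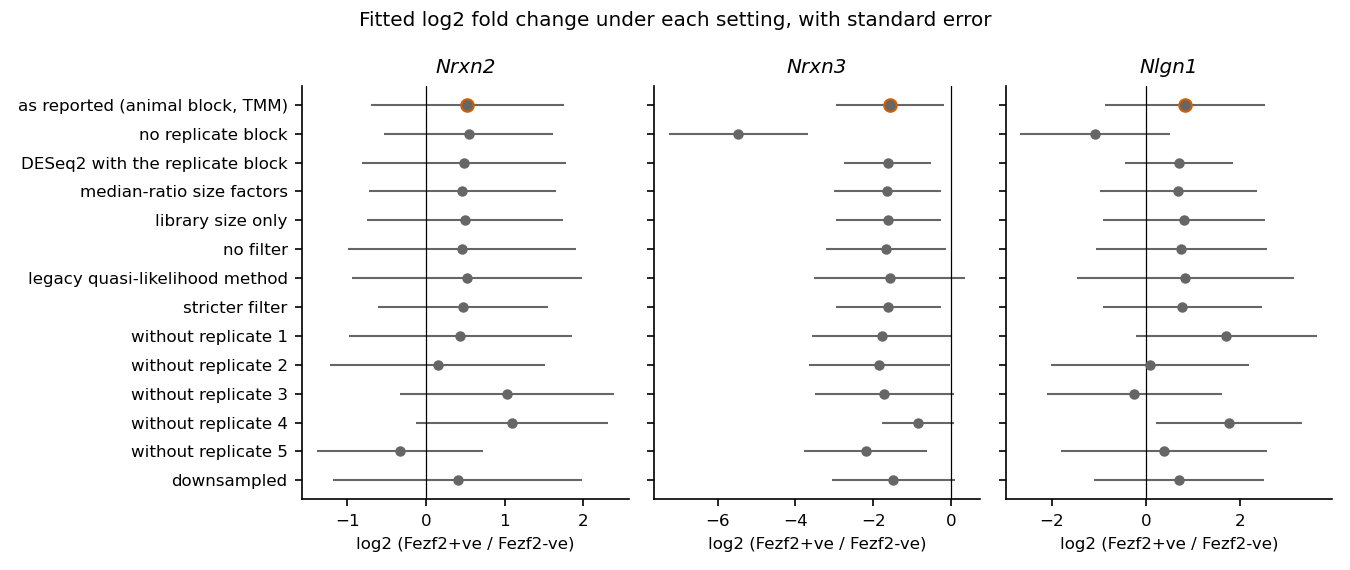
Fitted log2 fold change (points, x axis, positive where *Fezf2+ve* was higher) with its standard error (bars) for *Nrxn2*, *Nrxn3* and *Nlgn1* under each setting of the analysis. The setting used in the text is the larger orange point, and the fit without the animal block moves *Nrxn3* from −1.58 to −5.47 and *Nlgn1* from 0.83 to −1.07.

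Levels of different genes were compared per kb, first of the longest coding transcript. In *Fezf2+ve* libraries *Nlgn1* was highest at 209 ± 272 CPM per kb (SD, n = 5), followed by *Nrxn3* at 21.9 ± 14.3, *Nrxn2* at 5.95 ± 5.21, *Nlgn3* at 0.587 ± 0.597 and *Nlgn2* at 0. In *Fezf2−ve* libraries *Nrxn3* was highest at 965 ± 2060 CPM per kb (SD, n = 5), followed by *Nlgn1* at 437 ± 914, *Nrxn2* at 4.08 ± 3.85, *Nlgn2* at 1.31 ± 1.45 and *Nlgn3* at 0.761 ± 0.749. The means of *Nrxn3* and *Nlgn1* rested on library 4. Without it, and before division by length, they fell from 7645 to 348 CPM and from 5156 to 332 CPM. The order by transcript stayed the same without animal 4. The ranges of neighbours overlapped at each step of both orders. Compared within each library, *Nlgn1* lay above *Nrxn3* in 5 of 5 and *Nrxn3* above *Nrxn2* in 4 of 5 *Fezf2+ve* libraries. *Nrxn2* lay above *Nlgn3* in 5 of 5 of them, at few reads. Among *Fezf2−ve* libraries *Nrxn3* lay above *Nlgn1* in 4 of 5, *Nlgn1* above *Nrxn2* in 5 of 5, *Nrxn2* above *Nlgn2* in 4 of 5 and *Nlgn2* above *Nlgn3* in 3 of 5. These counts are a description and were not tested. The libraries are biased to the 3′ ends of transcripts, where reads need not scale with transcript length, so the values per kb of transcript can understate long transcripts. The published text states that length can be left out when such libraries are normalised.

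Per kb of gene span, introns included, the order was different. *Nlgn1* had the highest mean in both types, at 2.72 ± 3.55 CPM per kb (SD, n = 5) in *Fezf2+ve* and 5.69 ± 11.9 in *Fezf2−ve* libraries. In *Fezf2−ve* libraries this place rested on library 4, without which *Nlgn1* had 0.366 ± 0.360 CPM per kb of span (SD, n = 4) and *Nlgn2* 0.495 ± 0.637, with few reads of *Nlgn2*. *Nrxn3* stood in the fourth place in *Fezf2+ve* libraries, at 0.107 ± 0.0704 CPM per kb of span, behind *Nrxn2* at 0.316 ± 0.277 and *Nlgn3* at 0.187 ± 0.190. *Nlgn3* had 4 reads in these libraries, none with more than 3, and lay above *Nrxn3* in 3 of 5 of them, so this step of the order is uncertain. Of the 10 places in the orders of both types, 2 were the same by transcript and by span. Which length suits these counts depends on how many reads of each gene lay in introns, which counts per gene do not show.

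Reads followed the span of a gene across the whole table. Of 223 genes that span at least 500 kb, 94.6% had 20 or more reads over the 10 libraries, compared with 56.9% of 2282 genes of 100 to 500 kb, 24.2% of 7721 genes of 20 to 100 kb and 7.27% of 13281 shorter genes. Across the 23507 genes with a position in GENCODE, Spearman's rho between span and reads was 0.595, over genes, which are not independent replicates. Over the 10 libraries the 5 genes lay in the same order by reads as by span, and without *Fezf2−ve* library 4 *Nlgn1* lay above *Nrxn3*. *Nrxn3* and *Nlgn1* are among the longest 0.302% of genes, and *Nlgn2* and *Nlgn3* are of ordinary length. Genes within a factor of 2 of the span of *Nrxn3* had a median of 222 reads (quartiles 90 and 1070, 91 genes), and those near *Nlgn1* had a median of 122.5 (quartiles 57.75 and 594, 264 genes), so over the 10 libraries both genes stood above the upper quartile of genes of their length. Without *Fezf2−ve* library 4, a choice made after seeing the data, *Nrxn3* had 392 reads, below the upper quartile of 712 over the same libraries, and *Nlgn1* had 1886, above that of 450.5. *Nrxn2* with 51 reads was above the upper quartile of 46, and without its highest library it had 37 and was below that of 39, while *Nlgn3* with 10 was below its upper quartile of 12. *Nlgn2* with 7 reads was at its upper quartile of 7.

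**Figure D3:**
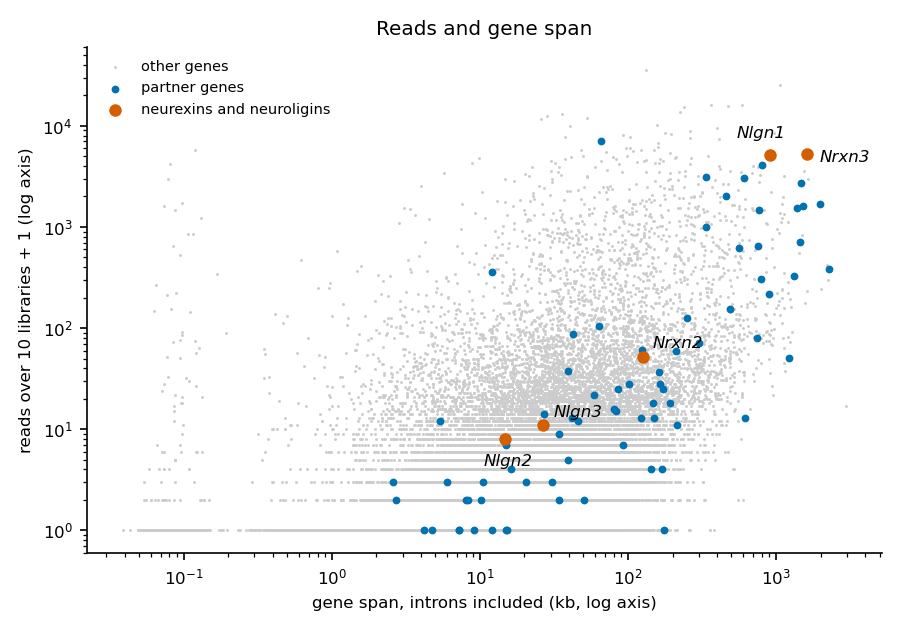
Reads over the 10 libraries plus 1 (y axis, log) against gene span in kb (x axis, log) for the genes with a known position, with partner genes in blue and the neurexins and neuroligins in orange. *Nrxn3* and *Nlgn1* (5302 and 5146 reads) lie at the upper right, and *Nlgn2* and *Nlgn3* (7 and 10 reads) lie among genes of ordinary length with few reads.

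Concentration of a gene's reads in 1 library was common in these data. Among the 1418 tested genes with at least 100 reads, the highest library held a median of 76.7% of the reads (quartiles 51.9 and 93.5%), and in 1093 genes (77.1%) it held more than 50% of them. Counting the gene itself, 385 (27.2%) of these genes were at least as concentrated as *Nrxn3*, at 92.6%, and 897 (63.3%) as *Nlgn1*, at 63.3%. Among the 332 tested genes with at least 1000 reads, where the median was 90.5%, 152 (45.8%) and 235 (70.8%) were so. *Nrxn2* had 27.5% of its 51 reads in its highest library, and its libraries had 1 to 14 reads each. Of the 4292 tested genes with at least 20 reads, 90.6% were as concentrated or more so. *Fezf2−ve* library 4 was the highest library for 131 of the 1418 genes, while other libraries were so for 72 to 221.

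**Figure D4:**
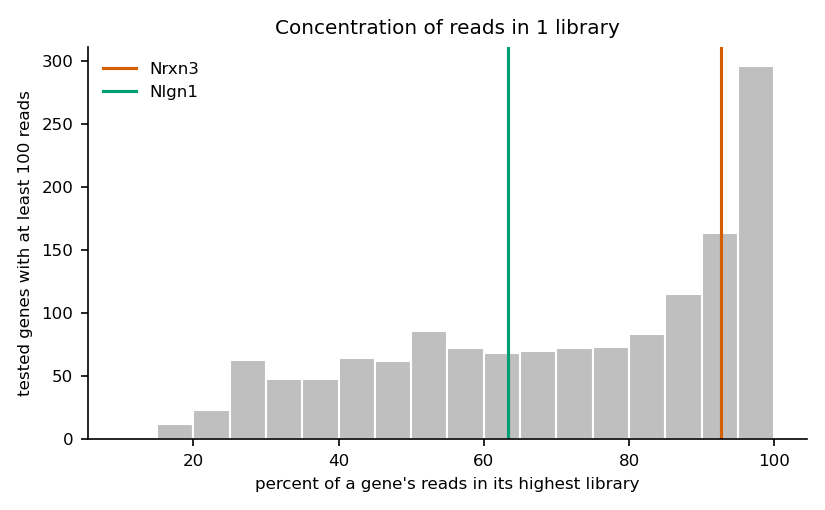
Number of tested genes with at least 100 reads (y axis) by the percent of a gene's reads that lay in its highest library (x axis). The lines mark *Nlgn1* at 63.3% and *Nrxn3* at 92.6%, and 77.1% of the genes lie above 50%.

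Partners of both families were taken from 5 lists with 74 genes, of which 65 had a read and 46 were tested. By edgeR with the block 0 of the 46 were called in either direction, beside 0% of all tested genes. An unadjusted p under 0.05 was found for 2, both higher in *Fezf2+ve* IT-PNs, beside 3.89% of all tested genes. That count was 0 without animal 3, and 1 under the stricter filter, downsampling and the legacy method. Without the block edgeR called 2 of the 46, beside 3.77% of all tested genes. DESeq2 called 0 of the 23 to which it gave an adjusted p, beside 5.89% over all genes with one. Fitted values were positive for 26 and negative for 20. Their median log2 fold change was 0.59, beside −0.16 over all tested genes and −0.02 when the 414 tested genes with 0 reads in one type were set to the bound that 3 reads allow. The median of the partner genes was −0.01 without animal 3, 0.05 without animal 2, 0.21 without animal 4 and −0.05 without the block, so its sign turned without animal 3 and without the block. The smallest adjusted p from edgeR among the 46 was 0.999.

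Neurexin ligands and receptors other than neuroligins comprised 20 genes, of which 9 were tested, 7 with positive and 2 with negative fitted values. *Adgrl3*, a latrophilin, had 10 to 246 reads in *Fezf2+ve* and 13 to 1992 reads in *Fezf2−ve* libraries, and a fitted value of −0.84 (standard error 1.69). *Grid1*, a delta receptor that neurexins reach through cerebellins, had 923 of its 1475 reads in *Fezf2−ve* library 1. *Lrrtm4*, a leucine-rich repeat protein of the postsynaptic membrane, had 183 of its 308 reads in *Fezf2+ve* library 1 and was higher in *Fezf2+ve* cells in 4 of 5 animals. The cerebellins *Cbln1*, *Cbln2* and *Cbln4* had 0 reads, as had *Nxph3*, *Nxph4* and *Adgrl2*.

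Of the 6 genes for neuroligin modulators and membrane partners, 3 were tested. *Mdga2*, whose product binds neuroligins and blocks neurexins from them, had 29, 11, 524, 15 and 21 reads in *Fezf2+ve* and 7, 2, 17, 1 and 17 in *Fezf2−ve* libraries from animal 1 to animal 5. In 5 of 5 animals the *Fezf2+ve* library was the higher one. Its fitted log2 value was 2.97 (standard error 1.22), with an adjusted p of 0.999 by edgeR and 0.114 by DESeq2, and *Fezf2+ve* library 3 held 81.4% of its reads. *Lhfpl4*, which links neuroligin-2 to GABA-A receptors, had 13 reads. *Adam10*, a protease that sheds membrane proteins, had 27. *Thbs1* and *Mmp9* had 0 reads.

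Of 19 genes for intracellular scaffolds 14 were tested, 7 in each direction. *Cask*, a kinase-like protein that binds the neurexin tail, had 12, 10, 7, 4 and 6 reads in *Fezf2+ve* and 40, 16, 99, 20 and 2901 in *Fezf2−ve* libraries from animal 1 to animal 5. It was the only partner gene among the 1.44% of tested genes with complete separation of the types, and *Fezf2−ve* library 5 held 93.1% of its reads. The fitted log2 value was −2.59 (standard error 1.39, adjusted p = 0.999 by edgeR), and −5.83 (standard error 1.61, adjusted p = 0.0931 by edgeR) without the block, where it was called. That fit called 3.77% of all tested genes. *Magi1*, *Magi2* and *Gphn*, scaffolds of the postsynaptic side, had 3067, 2742 and 2009 reads and log2 fold changes of −1.25 (standard error 1.36), −0.92 (standard error 1.28) and 1.59 (standard error 2.21). *Fezf2−ve* library 1 held 93.5% of the reads of *Magi2* and 73.8% of those of *Gphn*, whose fitted value was positive. *Snx27*, a sorting protein, was the second gene with an unadjusted p under 0.05 and is named for that reason. It had 0, 3, 12, 7 and 1 reads in *Fezf2+ve* and 0, 0, 1, 0 and 0 in *Fezf2−ve* libraries, a fitted value of 4.16 (standard error 1.66) and an adjusted p of 0.999 by edgeR. It passed the filter through *Fezf2+ve* libraries alone, which bears on the direction of its value.

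Regulators of neurexin splicing numbered 7, of which 6 were tested, 2 with positive and 4 with negative fitted values. *Ptbp2*, a repressor of neuronal exons, had 5 to 486 reads in *Fezf2+ve* and 3 to 3675 in *Fezf2−ve* libraries, and its fitted value of −2.61 (standard error 2.73) was smaller in size than its error. *Rbfox1*, a splicing factor of neurons, had 1620 reads and a fitted value of 0.67 (standard error 1.04). *Khdrbs2*, a STAR-family splicing factor, had 154 reads, of which 74.7% lay in *Fezf2−ve* library 3. *Nova1*, another neuronal splicing factor, had 60, of which 78.3% lay in *Fezf2−ve* library 1.

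Other trans-synaptic organisers comprised 22 genes, of which 14 were tested, 9 with positive and 5 with negative fitted values. The receptor phosphatase gene *Ptprd* was higher in *Fezf2+ve* cells in 5 of 5 animals, with 12 to 201 against 6 to 29 reads and a fitted value of 1.34 (standard error 1.00). *Il1rapl1*, whose product binds PTPδ, had 1113 of its 1540 reads in *Fezf2+ve* library 3. *Ntrk3*, the receptor for neurotrophin-3, had 622 reads, of which 55.6% lay in *Fezf2−ve* library 3. *Lrfn5*, which encodes a leucine-rich repeat adhesion protein, had 962 of its 995 reads in *Fezf2+ve* library 5. It was higher in *Fezf2+ve* cells in 5 of 5 animals, with a fitted value of 1.59 (standard error 1.37, adjusted p = 0.999 by edgeR). Without the block it was called (log2 fold change 5.997, standard error 1.67, adjusted p = 0.0931 by edgeR), beside 3.77% of all tested genes. *Slitrk4* had 0 reads.

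High libraries differed from gene to gene. Of the 24 partner genes and members with at least 100 reads, 3 were highest in *Fezf2−ve* library 4, namely *Nrxn3*, *Nlgn1* and *Magi1*. Another 5 were highest in *Fezf2−ve* library 3, 4 in *Fezf2−ve* library 5 and 4 in *Fezf2+ve* library 5. Span and reads went together in this set as well. The 37 partner genes of at least 100 kb had a median of 124 reads and 28 had 20 or more, whereas the 37 shorter genes had a median of 2 and 7 had 20 or more.

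**Figure D5:**
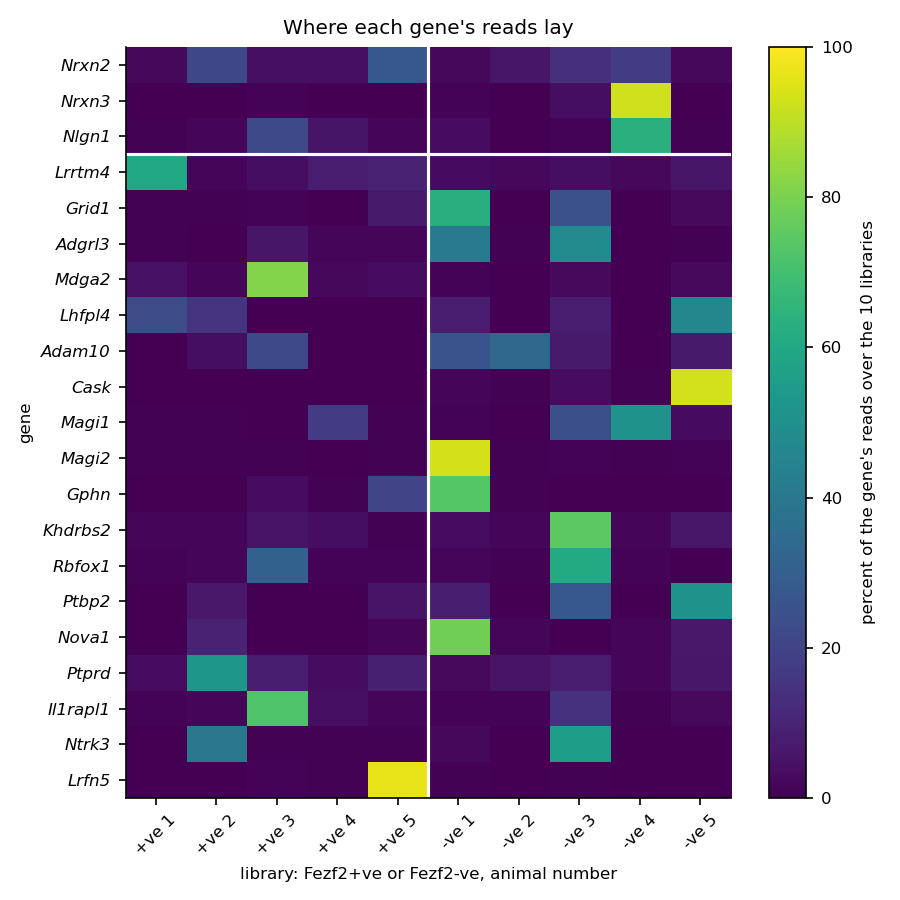
Percent of a gene's reads over the 10 libraries that lay in each library (colour), for 3 members above the white line and named partner genes of each list below it. *Nrxn3* and *Nlgn1* share *Fezf2−ve* library 4 as their highest, and the partner genes have theirs in other libraries, with the exception of *Magi1*.

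The profiles of *Nrxn3* and *Nlgn1* over the 10 libraries, which come from 5 animals, had a Pearson r of 0.702 on log2(CPM + 1), and of 0.313 without *Fezf2−ve* library 4. The tested genes most like *Nrxn3* were *Agpat4* (r = 0.975), *Rhbdl3* (0.954) and *Tbxas1* (0.953). Without that library these were 0.868, 0.745 and 0.648, and *Tbxas1*, the gene for thromboxane synthase, had 4716 of its 4780 reads in it. *Agpat4* had 127 of 131 and *Rhbdl3* 94 of 97 reads in it, so their r without that library rests on almost no reads. Most like *Nlgn1* were *Mettl15* (r = 0.903), *Rsph9* (0.901) and *Uros* (0.864), of which *Rsph9* and *Uros* had 10 and 8 reads. Most like *Nrxn2* were *Nfat5* (r = 0.911), *Dync1li1* (0.845) and *Wsb1* (0.836), with 19, 10 and 57 reads. These values are a description over libraries that share animals and differ in depth and in their few dominant genes.

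Markers of other cell types were summed in each library, beside the members' values. Across 9 marker lists, total reads and the ERCC share, 11 measures were compared between types by a two-sided exact permutation test over the 5 animals, whose smallest possible p is 0.0625. Microglial markers stood apart. From animal 1 to animal 5 their sum was 0.0254, 0.0195, 0.00932, 0.00726 and 0.0123% of gene reads in *Fezf2+ve* and 0.655, 0.466, 0.694, 0.166 and 0.398% in *Fezf2−ve* libraries, higher in *Fezf2−ve* cells in 5 of 5 animals (exact p = 0.0625, 0.344 after Benjamini-Hochberg adjustment). All 14 microglial genes were tested and had negative fitted values, with *Ctss* the most abundant at 817 reads. In *Fezf2+ve* libraries *Trem2* had 0 reads, *Tyrobp*, *Aif1*, *C1qa*, *C1qb* and *Siglech* at most 1 and *Tmem119* at most 2. These genes passed the filter through *Fezf2−ve* libraries alone, which bears on the direction of their values. By edgeR with the block 0 of the 14 were called and 10 had an unadjusted p under 0.05, beside 0% and 3.89% of all tested genes. Without the block edgeR called 10, beside 3.77% of all tested genes. DESeq2 called 9 of the 10 to which it gave an adjusted p, beside 5.89% over all genes with one. *Fezf2−ve* library 4, the highest for *Nrxn3* and *Nlgn1*, had the lowest microglial sum of the *Fezf2−ve* libraries. The gates for GFP and CTB are meant to leave out cells with neither label, and the part of microglial RNA in the values of *Nrxn3* and *Nlgn1* was not tested.

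The summed share of pan-neuronal markers was in 5 of 5 animals lower for *Fezf2−ve* cells, at 0.00639 to 0.0688% in *Fezf2+ve* and 0.00597 to 0.0113% in *Fezf2−ve* libraries (exact p = 0.0625, 0.344 adjusted). Both libraries of animal 5 had 13 such reads. Of the 8 markers 5 were tested, 4 with positive and 1 with negative fitted values. By edgeR with and without the block 0 of them were called, beside 0% and 3.77% of all tested genes. With the block 0 of them had an unadjusted p under 0.05, beside 3.89% of all tested genes. DESeq2 called 0 of the 1 to which it gave an adjusted p, beside 5.89% over all genes with one. Cortical glutamatergic markers, led by *Camk2a* with 588 reads, had sums of 0.00132 to 0.217% and 0.00426 to 0.333% (exact p = 0.875). *Grin2b* made up 435 of 442 of these reads in *Fezf2+ve* library 5 and *Camk2a* 529 of 561 in *Fezf2−ve* library 3, the highest of their types. Layer 5 intratelencephalic markers, led by *Rorb* with 728 reads, had sums of 0.00279 to 0.0363% and 0.00473 to 0.4001% (exact p = 0.375). In the highest libraries, *Fezf2+ve* library 4 and *Fezf2−ve* library 3, *Rorb* made up 48 of 55 and 646 of 675 of these reads. GABAergic interneuron markers, led by *Erbb4* with 1115 reads and with *Slc32a1*, *Pvalb* and *Vip* at 0, had sums of 0.00836 to 0.395% and 0.00426 to 0.140% (exact p = 0.563). In the highest libraries, *Fezf2+ve* library 4 and *Fezf2−ve* library 5, *Erbb4* made up 598 of 599 and 300 of 304 of these reads.

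Astrocyte markers, led by *Slc1a2* with 1817 reads and with *Gfap* at 0, had sums of 0.0462 to 0.761% in *Fezf2+ve* and 0.00413 to 0.380% in *Fezf2−ve* libraries (exact p = 0.563). *Fezf2−ve* library 4 was the highest of its type for this sum as for *Nrxn3* and *Nlgn1*, but 791 of its 803 astrocyte marker reads were of *Slc1a2* alone. The part of astrocyte RNA in the values of both genes was not tested. Oligodendrocyte markers had sums of 0.0106 to 1.07% and 0.0114 to 0.205% (exact p = 0.625). Oligodendrocyte precursor markers, led by *Pdgfra* with 740 reads, had sums of 0.00726 to 0.263% and 0.0104 to 0.112% (exact p = 0.563). Endothelial markers, led by *Flt1* with 26 reads, had sums of 0.000847 to 0.00678% and 0.00178 to 0.00505% (exact p = 0.563). In 4 of 5 animals the *Fezf2−ve* library had more reads on genes (exact p = 0.188), and in 2 of 5 it had the higher ERCC share (exact p = 0.625). With 5 animals no measure could reach a p of 0.05, so these values do not show that the types were alike.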

How the data were processed

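The authors demultiplexed the reads, trimmed them, dropped reads under 50 bases, mapped them to mm10 or to the ERCC sequences with TopHat2 (2.1.1 in the submitters' processing notes) and took reads per RefFlat gene with multiCov of BEDTools (2.26.0). The deposited values are raw counts per gene and per ERCC transcript. Whether strand was used is not given in the sources used here. A further deposited table holds the authors' own DESeq2 comparison (means, log2 fold changes with standard errors, statistics and p-values) and was not used.

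The members and gene lists were chosen with earlier results of these data known. Other genes of both families and some single genes of the lists are not reported here. Genes reaching 10 CPM, before TMM, in 2 or more libraries (7409 of 24453) were scaled by TMM and fitted by quasi-likelihood in edgeR 4.0.16 under R 4.3.3, the animal being a block, calls being made at a Benjamini-Hochberg FDR of 0.1. Standard errors were taken back from the F statistic. The numbers 1 to 5 pair the libraries because both types came from 1 animal by the sample records, and deviations from the type means had a mean correlation of 0.0292 within animals over genes. The code was tested on simulated counts. Named partner genes were the 4 tested genes with the most reads in each list, like genes the 3 with the highest r for members with at least 20 reads, and markers the most abundant gene and those at 0. *Slc17a7*, *Tubb3*, *Grin2b*, *Rbfox3* and *Snx27* were named after their values were seen. Positions came from GENCODE on GRCm38. Coding identity came from a global alignment in biopython 1.88. Alternatives were the fit without the block, DESeq2 1.42.0, median-ratio size factors, scaling by library size, dropping or tightening the filter, downsampling, gene span as the length and leaving out each animal. The legacy quasi-likelihood method was added after seeing the data.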

Additional observations from a re-analysis of the deposited data

Results flagged for a closer look

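Among the *Fezf2−ve* libraries, library 4 lay far from the other 4 for 2 genes, *Nrxn3* and *Nlgn1*. *Nrxn3* had 36830 CPM there against 907 CPM in the next library. *Nlgn1* had 24450 CPM there against 807.5 CPM in the next. As shares of gene reads the gaps were smaller, at 2.32% against 0.114% for *Nrxn3* and 1.54% against 0.0983% for *Nlgn1*. The 9 groups of 5 libraries with any reads were examined, and chance alone sets apart a library in about 1 in 20 groups of normally spread values. These libraries are not spread so, since 1 library held more than 50% of the reads in 77.1% of the tested genes with at least 100 reads.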

How the results depend on the processing

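With the animal as a block, edgeR called 0 genes under every scaling and filter tried, downsampling, the legacy method chosen after seeing the data, and each animal left out, with 175 to 345 genes at an unadjusted p under 0.05. Without the block it called 279 (3.77%) of the 7409 tested genes and 2 of the 46 tested partner genes, *Cask* and *Lrfn5*. In that fit the log2 fold change was −5.47 for *Nrxn3* and −1.07 for *Nlgn1*. DESeq2 with the block called 98 (5.89%) of the 1664 genes with an adjusted p, and 0 of the 23 partner genes with one. The cause was not tested. Per kb of gene span, 2 of 10 places in the order of the genes per kb of transcript stayed as they were. With each animal left out, all 10 places stayed in the order by transcript. Leaving out animals in the order by span was chosen after seeing the data, and 6 places stayed without animal 4, 8 without animal 1 and 10 without each of the others. With each animal left out the log2 fold change was −2.20 to −0.86 for *Nrxn3*, −0.24 to 1.75 for *Nlgn1*, −0.33 to 1.09 for *Nrxn2*. It kept its sign in 13 of 13 alternatives for *Nrxn3*, 11 of 13 for *Nlgn1* and 12 of 13 for *Nrxn2*. Downsampling, with 9811 genes tested in place of 7409, moved the median of all genes from −0.16 to −0.05. Relative to that median *Nrxn3* was at −1.42 before and −1.44 after, *Nlgn1* at 0.99 and 0.755, and *Nrxn2* at 0.688 and 0.458. The stricter filter removed *Nlgn2* and *Nlgn3*, and *Nlgn2* was not tested without animal 1 or 3. Depth limits *Nlgn2* and *Nlgn3* most, as no library but 1 exceeded 3 reads of either.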
